A study of Mus musculus with 2 samples.

Results

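Scg2-rich and Scg2-poor cells were the opposite ends of the range of Scg2 transcript among single LβT2 cells. Cells with at least 300 unique molecular identifiers (UMIs, 1 for each captured transcript molecule) were ranked, in each library apart, by Scg2 UMIs divided by the UMIs of all other analysed genes. The members were thus chosen by their measured Scg2 level: the top quartile was called Scg2-rich and the bottom quartile Scg2-poor. This gave 444 rich and 444 poor vehicle cells and 446 rich and 446 poor GnRH cells, 1780 of the 3881 called cells. LβT2 is an immortalised mouse pituitary line with gonadotrope features, made from a pituitary tumour of transgenic mice in which rat LHβ sequences drove the SV40 T antigen. Both libraries came from cells at passage 15, 1 library from a culture given vehicle and 1 from a culture given 2 nM GnRH, each for 40 min. There was 1 library per treatment, so no test was possible, and all intervals below are 95% intervals that cover counting error only. They are too narrow as a measure of how repeat cultures would vary, since cells differ by more than counting error.

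Secretogranin II, the product of Scg2, is an acidic granin stored in the dense-core granules of endocrine cells and neurons, and in gonadotropes it is packed and released with luteinising hormone. Granins aid the sorting of cargo and the building of the granule, and secretogranin II is also cleaved to peptides such as secretoneurin. GnRH acts on gonadotropes through a Gq-coupled receptor, which raises calcium, activates protein kinase C and MAP kinases and induces early genes, among them Btg2, a member of the BTG/TOB family of antiproliferative regulators.

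Scg2 (ENSMUSG00000050711) is on chromosome 1 (GRCm38, minus strand, 79434669 to 79440120). Its promoter holds a cyclic AMP response element, a known regulatory site of granin genes, and so does that of Btg2. Both sites are shown because Scg2 defined the classes and Btg2 was the gene with the largest response inside them. They are given 5′ to 3′ on the strand of the gene, from RefSeq promoters in GRCm38.p6, with the palindrome TGACGTCA in capitals. The RefSeq starts differ from the ends of the GENCODE genes given here, and the Scg2 window lies inside the longer GENCODE gene.
Scg2, minus strand of chr1:79440076-79440105, palindrome starting 68 bases before the RefSeq start at 79440026: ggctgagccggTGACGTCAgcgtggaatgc
Btg2, minus strand of chr1:134079303-134079332, palindrome starting 166 bases before the RefSeq start at 134079155: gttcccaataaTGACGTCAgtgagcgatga
The letters TGACGTCA, which read the same on both strands, were found in the 250 bases before the RefSeq start in 508 of 32851 mouse promoters (1.55%). Among the 12 genes highest and the 12 lowest in Scg2-rich cells, described below, 10 of each had a promoter in the table. The palindrome was in 0 of the 10 highest and in 1 of the 10 lowest, Cnnm4.

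The values that chose the classes were as follows and are given as a description. In the vehicle library, Scg2-rich cells had 94.0 to 339 Scg2 UMIs per 1000 other UMIs with a median of 116, and Scg2-poor cells had 5.97 to 49.9 with a median of 38.6. In the GnRH library the rich cells had 91.2 to 290 with a median of 113, and the poor cells had 4.62 to 46.4 with a median of 35.3. The summed level was 1.78 (1.74 to 1.81) higher on the log2 scale in rich than in poor vehicle cells, and 1.83 (1.80 to 1.87) higher in GnRH cells. Every ranked cell held Scg2: the lowest count was 2 UMIs and the median was 36 in each library.

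**Figure D1:**
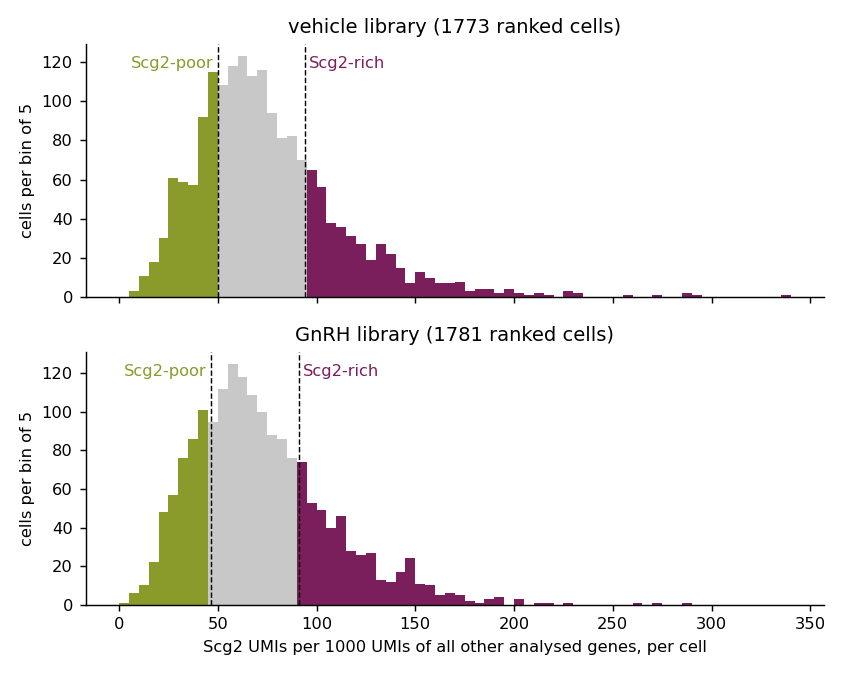
Histograms of Scg2 UMIs per 1000 UMIs of all other analysed genes in each ranked cell, for the vehicle library (top) and the GnRH library (bottom), with cells per bin on the vertical axis. Dashed lines are the quartile limits and bars are coloured by the centre of their bin. Counted in bins wider than those drawn, with the sparsest bins left out, each library has 1 peak, which lies between the limits. A tail on the right reaches 339 in vehicle and 290 in GnRH cells.

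The 2 classes were the ends of a continuous range of Scg2. Counted in wide bins, Scg2 per 1000 other UMIs had 1 peak in each library, and the limits fell on its slopes. A count of peaks of 1 gene cannot show whether groups of cells overlap, and this was not tested. The vehicle upper limit lay between 94.04 in the lowest rich cell and 94.02 in the highest middle cell, and the lower limit between 49.87 in the highest poor cell and 49.90 in the lowest middle cell. In the GnRH library the neighbouring values were 91.15 and 91.06 at the upper limit and 46.39 and 46.41 at the lower one. Cells within 10% of the upper limit made up 15.0% of ranked vehicle cells and 14.6% of ranked GnRH cells, and cells within 10% of the lower limit 12.6% and 10.5%. As a description, the coefficient of variation of Scg2 UMIs was 0.623 in each library, and Poisson counts at the depths of the same cells would give 0.361 (vehicle) and 0.363 (GnRH).

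Depth was alike in the classes. The median cell held 531 UMIs other than Scg2 in rich and 549.5 in poor vehicle cells, and 539 in both GnRH classes. Genes detected per cell had medians of 160.5 and 163 in vehicle and 160 and 159 in GnRH cells, rich before poor. Of the markers of other cell types fixed for the comparison, the fibroblast collagens Col3a1 and Col5a2 and the leukocyte genes Cd28 and Il1rl1 had 0 UMIs in all 4 class sums. The muscle gene Des had 4 to 8 UMIs per class, and fibronectin, Fn1, is described below. Gonadotropin subunits, the GnRH receptor and the other pituitary hormones were not analysed here, so the gonadotrope label could not be checked on its defining genes.

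The level of Scg2 between treatments depended on whether Btg2, which GnRH raised, was in the divisor. Its level over all ranked cells was 75.4 per 1000 other UMIs in vehicle and 72.6 in GnRH cells, a log2 difference of −0.06 (−0.07 to −0.04). The log2 difference was −0.06 (−0.08 to −0.04) among rich cells and −0.11 (−0.16 to −0.07) among poor cells. Scg2 itself set the class limits in each library apart. The values within classes thus restate those limits in part and are a description. With Btg2 left out of the divisor, an alternative chosen after seeing the data, the log2 difference over all ranked cells was −0.01 (−0.02 to 0.01). In the same classes, ranked with Btg2 in the divisor, it was then −0.01 (−0.03 to 0.01) among rich and −0.07 (−0.12 to −0.03) among poor cells. Without replicate libraries these small differences have no check beyond counting error.

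Among the 340 other genes with at least 200 UMIs over the 4 class sums, few differed between the classes as much as 1.5-fold. In the vehicle library 3 genes were at least 1.5-fold higher in Scg2-rich cells (0.882% of the genes) and 7 were lower (2.06%), and in the GnRH library 3 were higher (0.882%) and 6 lower (1.76%). In both libraries at once, 1 gene was higher (0.294%), St18, and 3 were lower (0.882%), Fn1, Pask and Pik3c2b. No gene was past 1.5-fold in opposite directions in the libraries. At a lower limit of 0.32 on the log2 scale, 14 genes were higher in both libraries (4.12%), 14 were lower in both (4.12%) and 0 went opposite ways, while each library alone had 31 higher and 31 lower genes in vehicle (9.12% each) and 34 and 34 in GnRH (10% each).

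The differences between rich and poor cells were correlated between the libraries, which share no cells but do share the rule. Of the 340 genes, 32.9% were higher and 35.3% lower in rich cells of both libraries, at any size. The others did not keep 1 direction, among them Etnk2 (−0.19 in vehicle and 0.52 in GnRH cells) and Btg2 (−0.22 and 0.35). Across genes, Pearson's r between the vehicle and GnRH log2 ratios was 0.63 over the 340 genes and 0.75 over the 169 genes with at least 1000 UMIs. Genes are not independent replicates, and the ratios of both libraries rest on the same kind of divisor, so r is given as a description. The median log2 ratio was −0.02 in vehicle and 0.00 in GnRH cells.

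**Figure D2:**
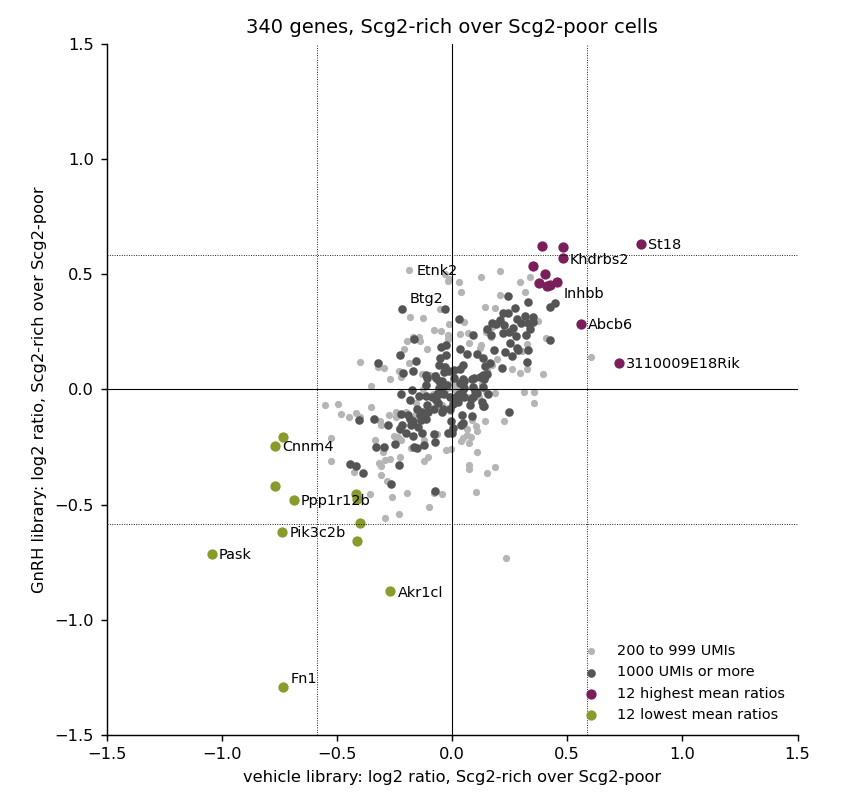
Log2 ratio of Scg2-rich over Scg2-poor cells for 340 genes, in the vehicle library (horizontal) and the GnRH library (vertical); dotted lines mark 1.5-fold and colours the 12 highest and 12 lowest mean ratios. St18 lies past 1.5-fold on the upper right, and Fn1, Pask and Pik3c2b on the lower left.

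St18, a zinc finger transcription factor of the myelin transcription factor family, had the highest mean ratio. It lies on chromosome 1 from 6487231 to 6860940 (plus strand) and overlaps no other annotated gene. St18 had 242 UMIs in rich and 138 in poor vehicle cells, and 230 in rich and 145 in poor GnRH cells. The rich sums were the higher in each library, by 1.77-fold (log2 0.82, 0.51 to 1.13) in vehicle and 1.55-fold (log2 0.63, 0.33 to 0.94) in GnRH cells. In GnRH cells it fell short of 1.5-fold when quartiles were taken within bins of depth (log2 0.56). It also did so when cells were thinned to 300 UMIs and ranked again (log2 0.50). With classes of the top and bottom 10% of cells it fell short as well (log2 0.47, against 1.10 in vehicle). An St18 UMI was seen in 37.4% of rich and 23.4% of poor vehicle cells, and in 37.2% and 25.8% of GnRH cells. When every cell was thinned to 300 UMIs and the classes were kept, these shares were 22.3% and 13.7% in vehicle and 21.1% and 16.4% in GnRH cells. No cell type that lacks a given gene was at hand in these cultures, so the part of free RNA in any share of cells with a UMI was not tested. Xkr4, a membrane protein of the XK family, was just under the minimum of 200 UMIs and is named after its values were seen: it had 57 and 22 UMIs in rich and poor vehicle cells and 72 and 37 in GnRH cells, with log2 ratios of 1.38 and 0.93.

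Khdrbs2, Kdm5b and Fev, which act on RNA, chromatin and transcription, were also among the 12 genes with the highest mean ratio. Levels are given as CPM, UMIs per 1000000 UMIs of the analysed genes other than Scg2. Khdrbs2, an RNA-binding splicing regulator, had 3473 and 2490 CPM in rich and poor vehicle cells and 3503 and 2360 in GnRH cells, a log2 ratio of 0.48 and 0.57. Kdm5b, a demethylase of histone H3 lysine 4, had 2273 and 1784 CPM in vehicle and 2277 and 1571 in GnRH cells. Fev, an ETS family transcription factor known from serotonergic neurons, had 1220 and 939 in vehicle and 1070.5 and 777 in GnRH cells. All 3 genes were higher in the rich cells of each library by less than 1.5-fold.

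Inhbb, which encodes the βB subunit shared by activin B and inhibin B, regulators of follicle-stimulating hormone, was also among the 12. It had 4276 CPM in rich and 3122 in poor vehicle cells, and 3566 in rich and 2579 in poor GnRH cells. The ratio was 1.37-fold (log2 0.45, 0.32 to 0.59) in vehicle and 1.38-fold (log2 0.47, 0.32 to 0.61) in GnRH cells, and Inhbb overlaps no other annotated gene. For the α subunit of inhibin, Inha, the interval held 0 in each library: its log2 ratio was 0.15 (−0.03 to 0.34) in vehicle and −0.02 (−0.20 to 0.16) in GnRH cells. The vehicle intervals of Inhbb and Inha overlap, and a difference between the genes was not tested. These were the 2 of 11 genes of the gonadotrope list that could be measured, and 0 of them passed 1.5-fold, a limit passed by 0.882% to 2.06% of the 340 genes in a given library and direction.

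Cntnap5a, a neurexin-family adhesion protein of neurons, was the most abundant of the 12 and the gene whose level followed Scg2 most closely from cell to cell. It had 21829 CPM in rich and 16240 in poor vehicle cells, and 20125 in rich and 14690 in poor GnRH cells (log2 0.43 and 0.45). Its correlation with Scg2 across cells was r = 0.27 over 1773 vehicle cells and r = 0.28 over 1781 GnRH cells, the highest of 342 genes. Inhbb followed with 0.15 and 0.16, Cox5b with 0.18 and 0.12, Serpine2 with 0.12 and 0.14 and Khdrbs2 with 0.10 and 0.14. The lowest were Rpl37a with −0.21 and −0.14, Rpl31 with −0.16 and −0.16, Pask with −0.16 and −0.09, Ptma with −0.11 and −0.13 and Snrpe with −0.07 and −0.13. Cells of a library share culture, library and divisor, and in sparse counts such weak values are no finding in themselves.

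The other genes of the 12 had fewer UMIs. Tyw5, an enzyme of tRNA wybutosine synthesis, had 140 and 101 UMIs in rich and poor vehicle cells and 107 and 68 in GnRH cells. Adora1, the adenosine A1 receptor, had 78 and 60 in vehicle and 82 and 52 in GnRH cells. Both were past 1.5-fold in the GnRH library, with log2 ratios of 0.62 each, but not in vehicle (0.48 and 0.39). With thinned cells both fell short of it, at 0.38 for Tyw5 and 0.56 for Adora1 in GnRH cells, and Adora1 turned to −0.08 in vehicle cells. Abcb6, a porphyrin transporter of mitochondria and other membranes, had log2 ratios of 0.56 in vehicle and 0.29 in GnRH cells, and the uncharacterised 3110009E18Rik 0.73 and 0.12. Dnajb2, a co-chaperone of Hsp70, stood at 0.41 and 0.45, and the aldehyde oxidase Aox3 at 0.40 and 0.50, with counting intervals that held 0 for Aox3 in each library. Of the 12, 6 overlap another annotated gene, against 60.9% of the 340 genes. Whether counting used strand was not given in the sources used here, so reads of overlapping genes could not be told apart.

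Pask, a nutrient-regulated kinase with a PAS domain, and Fn1, the matrix protein fibronectin, were the genes farthest in the other direction. Pask had 78 UMIs in rich and 162 in poor vehicle cells, and 83 in rich and 133 in poor GnRH cells. Its log2 ratio was −1.04 (−1.45 to −0.65) in vehicle and −0.71 (−1.13 to −0.31) in GnRH cells. The share of cells with a Pask UMI was 14.4% in rich and 29.3% in poor vehicle cells and 16.8% and 25.6% in GnRH cells, and after thinning 7.0% and 16.7%, and 8.5% and 15.9%. Pask is at 93308770 to 93343482 of chromosome 1, minus strand, and overlaps Ppp1r7 on the other strand.

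Fn1 had 114 UMIs in rich and 191 in poor vehicle cells, and 90 in rich and 215 in poor GnRH cells. The poor sums were higher in each library, with a log2 ratio of −0.73 (−1.08 to −0.39) in vehicle and −1.29 (−1.66 to −0.93) in GnRH cells, and with thinned cells −0.44, short of 1.5-fold, and −0.83. A Fn1 UMI was present in 16.2% of rich and 24.5% of poor vehicle cells, and in 15.7% and 28.3% of GnRH cells (thinned 9.0% and 13.5%, and 9.9% and 17.5%). The cell with most Fn1 UMIs held 5.76% of the poor vehicle sum and 4.65% of the poor GnRH sum. Fn1 is a marker of fibroblasts, of which the defining collagens Col3a1 and Col5a2 were at 0 in the same cells. It lies on the minus strand from 71585520 to 71653200 and overlaps an antisense annotation, Apol7d.

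The other 10 of the 12 genes with the lowest mean ratio followed. Pik3c2b, a class II phosphoinositide 3-kinase, had 53 and 89 UMIs in rich and poor vehicle cells and 52 and 78 in GnRH cells, with log2 ratios of −0.74 and −0.62 (−1.02 and −0.31 with thinned cells). Ppp1r12b, a regulatory subunit of myosin phosphatase, had 111 and 180 UMIs in vehicle and 127 and 173 in GnRH cells, and the adaptor Nck2 had 46 and 79, and 52 and 68. Bard1, the partner of Brca1 in DNA repair, had 130 and 173 in vehicle and 128 and 187 in GnRH cells. Cnnm3 and Cnnm4, proteins of magnesium transport, had log2 ratios of −0.41 and −0.77 in vehicle and −0.66 and −0.25 in GnRH cells. Stau2, which binds double-stranded RNA and takes part in its transport, stood at −0.42 and −0.45, Plekha6 at −0.74 and −0.21, and the non-coding 2900060B14Rik at −0.41 and −0.47 with intervals that held 0. Akr1cl, of the aldo-keto reductase family, was at −0.27 in vehicle and −0.88 in GnRH cells, and 1 cell held 17.2% of its rich vehicle sum and another 10.6% of its poor GnRH sum. All 12 lowest genes overlap another annotated gene (60.9% of the 340 genes do).

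Intermediate cells lay between the classes for many of these genes. From the first to the fourth quartile of Scg2, St18 stood at 545, 648, 697 and 962 CPM in vehicle and 578, 677, 884 and 895 in GnRH cells. Inhbb stood at 3122, 3719, 4093 and 4276 in vehicle and 2579, 2971, 3400 and 3566 in GnRH cells. Fn1 went the other way, at 754, 609, 589 and 453 in vehicle and 857, 808, 732 and 350 in GnRH cells. Of the 12 highest genes 5 increased at every step in both libraries, namely St18, Khdrbs2, Inhbb, Kdm5b and Dnajb2, against 5.59% of the 340 genes. Of the 12 lowest genes Fn1 and Pask decreased at every step in both, against 2.94% of the 340. The ends of these series chose the genes, so the shares are a description.

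**Figure D3:**
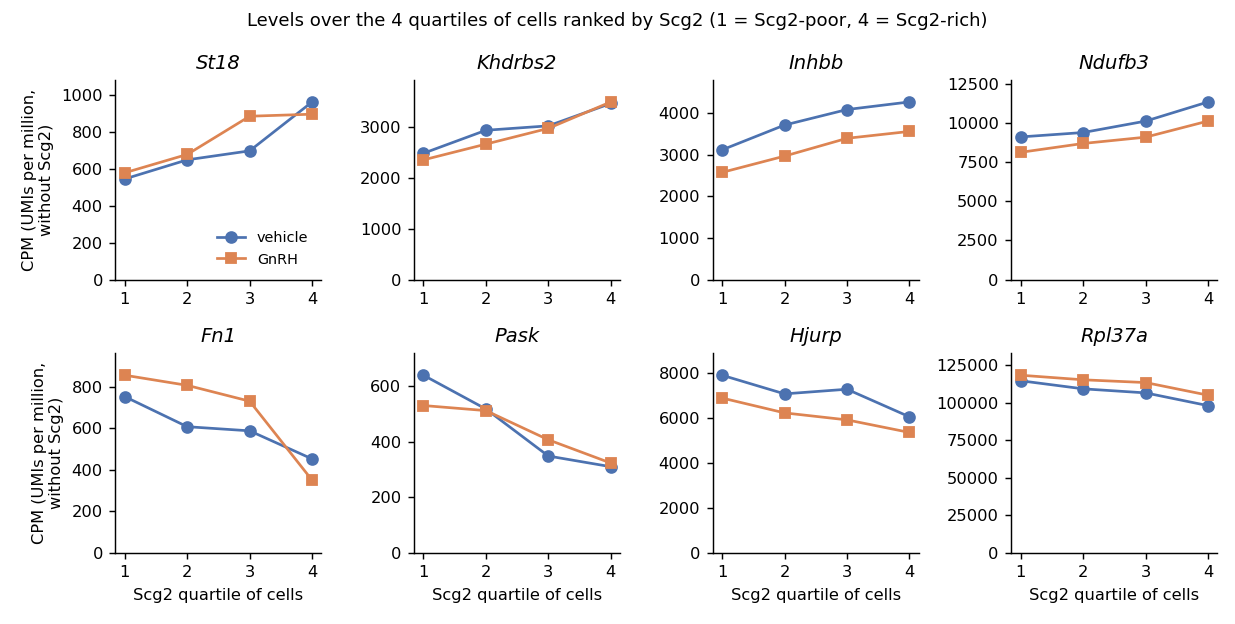
Levels of 8 genes in CPM (without Scg2, vertical axis from 0) over the 4 quartiles of cells ranked by Scg2 (horizontal axis), for the vehicle (circles) and GnRH (squares) libraries. St18, Khdrbs2, Inhbb and Ndufb3 increase from quartile 1 to 4 in both libraries, and Fn1, Pask and Rpl37a decrease in both, as does Hjurp in the GnRH library.

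Most measured genes of the mitochondrion were higher in Scg2-rich cells of both libraries, by less than 1.5-fold. Of 14 measured members of a list of 17, 0 passed 1.5-fold in either library, 10 were higher in both libraries at any size and 0 were lower in both, against 32.9% and 35.3% of the 340 genes. The median log2 ratio was 0.20 in vehicle and 0.22 in GnRH cells, beside −0.02 and 0.00 over all 340 genes. Cox5b, a subunit of cytochrome c oxidase, had 36080 and 30277 CPM in rich and poor vehicle cells and 33006 and 28747 in GnRH cells. Ndufb3 and Ndufs1, subunits of respiratory complex I, had log2 ratios of 0.32 and 0.35 in vehicle and 0.32 and 0.29 in GnRH cells. The complex III assembly factor Bcs1l, at 0.01 and 0.00, is among the 10 although its difference was near 0. The fission factor Mff was at 0.01 and −0.06. Mterf4, of mitochondrial ribosome assembly, and the membrane protein Tmem177 were at 0.18 and 0.07 in vehicle and at −0.34 and −0.23 in GnRH cells, and Mrpl44, of the mitochondrial ribosome, was at −0.03 and 0.35.

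Genes of DNA replication and mitosis lay the other way. Of 10 measured members of a list of 15, 0 passed 1.5-fold, 9 were lower in rich cells in both libraries at any size and 1, Xrcc5, was higher in both, against 35.3% and 32.9% of the 340 genes. The median log2 ratio was −0.12 in vehicle and −0.30 in GnRH cells. Hjurp, the chaperone that loads the centromeric histone CENP-A, had 6056 and 7909 CPM in rich and poor vehicle cells and 5360 and 6893 in GnRH cells (log2 −0.38 and −0.36). Ube2t, a ubiquitin-conjugating enzyme of the Fanconi anaemia pathway, stood at −0.26 (−0.42 to −0.11) and −0.41 (−0.57 to −0.25). The replicative helicase subunits Mcm3 and Mcm6 were at 0.00 and −0.01 in vehicle, close to no difference (0.04 and 0.03 with their own UMIs left out of the divisor), and at −0.19 and −0.14 in GnRH cells. Most genes that mark phases of the cell cycle were not analysed here, so cells were not placed in a phase.

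**Figure D4:**
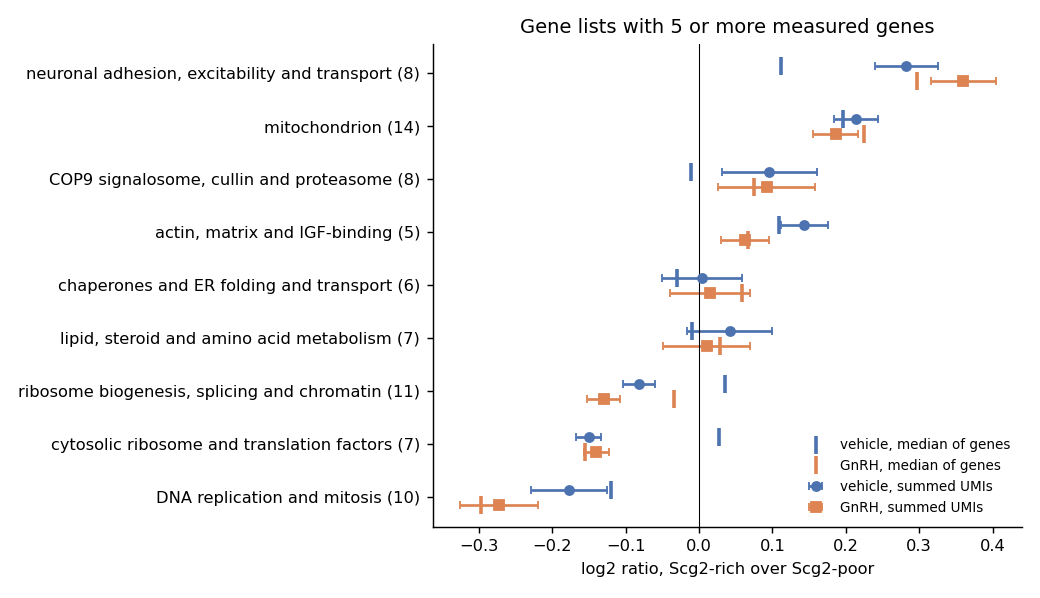
Log2 ratio of Scg2-rich over Scg2-poor cells (horizontal axis) for the 9 gene lists with 5 or more measured genes (number in brackets), from summed UMIs with 95% counting intervals (circles, vehicle; squares, GnRH) and as the median over genes (bars). The summed levels of the neuronal, mitochondrial, COP9 and actin lists lie to the right of 0 in both libraries, and those of the DNA replication and mitosis list and both lists with ribosome in their name to the left.

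Most measured neuronal genes were higher in rich cells, Cntnap5a among them. Of 8 measured members of a list of 16, 0 passed 1.5-fold, 6 were higher in both libraries and 1, Map2, was lower in both, against 32.9% and 35.3% of the 340 genes. The median log2 ratio was 0.11 in vehicle and 0.30 in GnRH cells. Atp2b4, a calcium pump of the plasma membrane, stood at 0.35 and 0.31. Dpp10, an auxiliary subunit of Kv4 potassium channels, stood at 0.24 and 0.41. Nfasc and Unc80 are among the 6 although they were near 0 in vehicle cells, at 0.03 and 0.05 (0.30 and 0.29 in GnRH cells). Kif1a was at −0.17 in vehicle and 0.08 in GnRH cells, and Map2 at −0.22 and −0.15. Cntnap5a, already picked above for its high ratio, made up 21829 of the 38583.5 CPM of the summed list in rich vehicle cells.

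Of 7 measured translation genes, Rpl37a, Rpl31 and the elongation factor gene Eef1b2 were lower in rich cells of both libraries, by less than 1.5-fold. Rpl37a, a protein of the large ribosomal subunit, had 98086 and 114661 CPM in rich and poor vehicle cells and 105052 and 118367 in GnRH cells. Its log2 ratio was −0.23 in vehicle and −0.17 in GnRH cells, and Rpl31 stood at −0.18 and −0.16. Such genes made up a large part of the divisor on which cells were ranked, so that a cell with many of their UMIs ranked lower for that alone. With each gene's own UMIs left out of the divisor, Rpl37a stood at −0.16 and −0.12, Rpl31 at −0.15 and −0.13 and the abundant chromatin-related Ptma at −0.08 and −0.11 in place of −0.13 and −0.19. Rpl7 was at 0.03 and −0.06. Over the list of 7 translation genes, 0 passed 1.5-fold, 2 were higher in both libraries and 3 lower in both, near the 32.9% and 35.3% of the 340 genes, with medians of 0.03 and −0.16. In vehicle cells the median and the summed level (−0.15) of this list thus differed in sign, and so they did for the 11 genes of ribosome biogenesis, splicing and chromatin, with a median of 0.04 and a summed level of −0.08. Under other ways of processing the vehicle median of the translation list lay between −0.07 and 0.05, so its sign was not kept. That of the 11 genes lay between 0.00 and 0.07.

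Few other genes of the secretory granule could be measured. Of 22 members of the granule list other than Scg2, 7 were in the table and 3 had enough UMIs, and 0 of these passed 1.5-fold, too few to read against the 0.882% to 2.06% of all genes that did in a given library and direction. Ecel1, a membrane metallopeptidase, had 2897 and 2538 CPM in rich and poor vehicle cells and 2943 and 2420 in GnRH cells, with log2 ratios of 0.19 (0.04 to 0.35) and 0.28 (0.13 to 0.44). Ptprn, the granule membrane protein IA-2, was at −0.16 (−0.45 to 0.11) in vehicle and 0.22 (0.03 to 0.41) in GnRH cells. Rab3gap1, a regulator of the granule GTPase Rab3, was at −0.14 and −0.13. The other members in the table had too few UMIs, among them Resp18, a granule protein of neuroendocrine cells, with 1 UMI over the 4 classes. Medians were −0.03 and 0.06 for chaperones and −0.01 and 0.03 for metabolism. The list of the COP9 signalosome, cullin and proteasome had medians of −0.01 and 0.07 and summed levels of 0.10 (0.03 to 0.16) and 0.09 (0.03 to 0.16), with 0 of 8 members past 1.5-fold. The list of actin, matrix and IGF-binding genes had medians of 0.11 and 0.07 and summed levels of 0.14 and 0.06, with 1 of 5 members, Fn1, past 1.5-fold in both (0.882% of the 340 genes were lower in both), which is also 1 of the 12 lowest genes. Igfbp5, which binds insulin-like growth factors, was at 0.33 and 0.38, and at 0.42 and 0.53 with its own UMIs left out of the divisor.

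Position on the chromosome was also compared, since all analysed genes that could be placed were on chromosome 1, as is Scg2. Of 7 measured genes within 1 Mb of the Scg2 start, Serpine2 was higher in rich cells in both libraries, with 14644 and 10892 CPM in vehicle and 12671 and 9887 in GnRH cells. It encodes a secreted inhibitor of serine proteases. Ap1s3, an adaptor subunit of clathrin coats, had log2 ratios of 0.30 and 0.47. The other 5 lay between −0.11 and 0.02 in vehicle and between 0.03 and 0.35 in GnRH cells. In steps of 10 Mb from Scg2, the medians of the log2 ratio lay between −0.12 and 0.09 in vehicle and between −0.16 and 0.16 in GnRH cells.

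The response to GnRH inside each class asked whether cells with more or less Scg2 responded alike. At 2-fold, 4 genes were higher after GnRH in Scg2-rich cells (1.18% of 340 genes), Btg2, Coq10b, Fhl2 and Ptprn, and 3 in Scg2-poor cells (0.882%), Btg2, Coq10b and Fhl2. No gene was 2-fold lower in either class (0% each). The median log2 ratio of GnRH over vehicle was −0.08 in rich and −0.10 in poor cells over the 340 genes. The rich and poor cells are different cells, but each rests on 1 vehicle and 1 GnRH library.

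Btg2 (ENSMUSG00000020423, minus strand of chromosome 1, 134075170 to 134079120, overlapping no other gene) had 236 UMIs in rich and 276 in poor vehicle cells, and 9048 in rich and 6928 in poor GnRH cells. The log2 ratio of rich over poor was 0.35 (0.31 to 0.40) in the GnRH library and −0.22 (−0.47 to 0.04) in vehicle. Other ways of processing gave 0.21, with classes of 33.3% of cells, to 0.57, with classes of 10%, in GnRH cells, and −0.25 to 0.01 in vehicle cells, where classes of 10% turned the direction. The response was 37.6-fold (log2 5.23, 5.04 to 5.42) in rich and 25.4-fold (log2 4.66, 4.49 to 4.84) in poor cells. The log2 responses differed by 0.57 (0.31 to 0.82, from a normal approximation to the 4 counts), just under the 1.5-fold limit, and by 0.43 to 0.67 under 13 other ways of processing, 3 of which passed that limit.

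Per cell, Scg2-poor cells more often held few Btg2 UMIs. In the GnRH library the median cell held 17 Btg2 UMIs in the rich class, 16 in the middle 889 cells and 12 in the poor class. Cells with 2 or fewer Btg2 UMIs were 7.85% of rich cells (35 of 446, 5.53 to 10.7, exact binomial), 11.1% of middle cells (99 of 889, 9.14 to 13.4) and 15.2% of poor cells (68 of 446, 12.0 to 18.9). The share was lowest in rich and highest in poor cells, all of them cells of 1 library, so the intervals are no measure of how cultures would differ. At a fixed 300 UMIs per cell the shares were 16.4%, 20.7% and 25.8%, the medians 8, 8 and 6 UMIs and the means 9.29, 9.38 and 7.93. The 95th percentile was 48 UMIs in rich and 43 in poor cells and the maximum 128 and 88, and at the fixed depth they were 22 and 22, and 36 and 41. The 300 UMIs include Scg2, so thinned rich cells kept fewer UMIs of other genes than thinned poor cells. Over the 4 quartiles the level was not stepwise, at 27618, 33949, 32201 and 35221 CPM from the lowest to the highest quartile of Scg2. In vehicle cells 95.7% of rich and 93.7% of poor cells held 2 or fewer. A Btg2 UMI was found in 98.9% of rich and 97.3% of poor GnRH cells and in 32.7% and 36.7% of vehicle cells (thinned 96.6%, 91.9%, 19.4% and 23.2%).

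**Figure D5:**
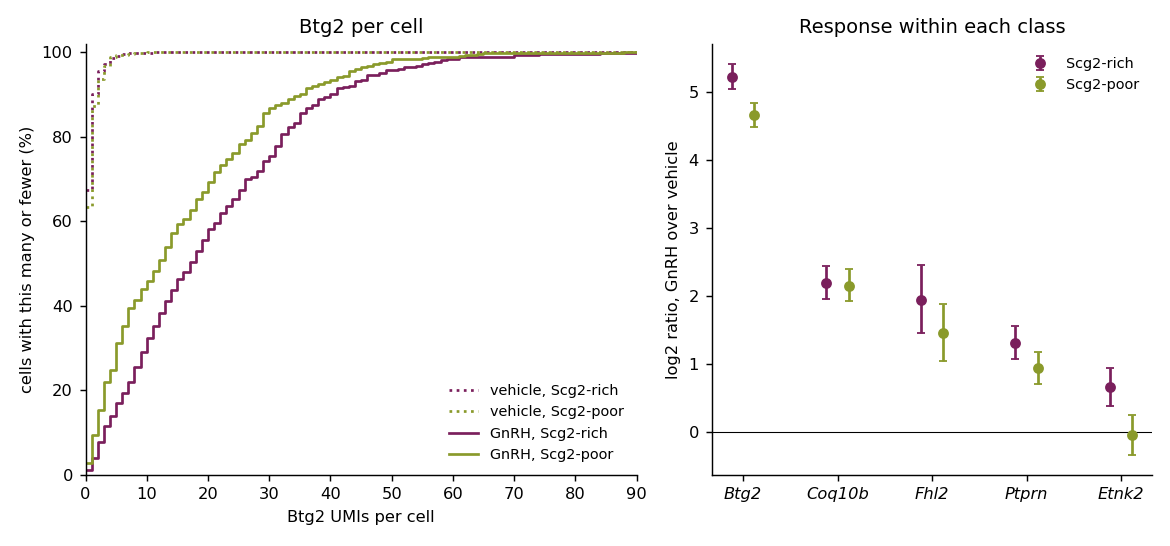
Left, share of cells (%) with at most the given number of Btg2 UMIs (horizontal axis, shown to 90) in the 4 classes; the Scg2-rich GnRH curve lies to the right of the Scg2-poor one over most of its course. Right, log2 ratio of GnRH over vehicle with 95% counting intervals within Scg2-rich and Scg2-poor cells, where Btg2 is at 5.23 and 4.66 and Coq10b at 2.20 and 2.15.

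The other genes past 2-fold were Coq10b, Fhl2 and Ptprn. Coq10b, which binds coenzyme Q in mitochondria, had 680 and 3114 CPM in vehicle and GnRH rich cells and 710 and 3157 in poor cells. Its log2 responses were 2.20 and 2.15. Their difference was 0.04 (−0.29 to 0.38), an interval that overlaps that of Btg2, and it lay between −0.35 and 0.21 under the 13 other ways of processing. Fhl2, a LIM-domain coregulator, went from 44 to 172 UMIs in rich and from 65 to 176 in poor cells, a difference in log2 response of 0.49 (−0.14 to 1.12). That difference lay between 0.29 and 0.69 under the 13 other ways of processing and passed 1.5-fold in 3. Ptprn went from 202 to 512 UMIs in rich and from 228 to 430 in poor cells, with log2 responses of 1.31 and 0.93 and a difference of 0.38 (0.05 to 0.71), or 0.13 to 0.78 under the other ways of processing. It passed 2-fold in the rich class alone, but the log2 response of poor cells lay between 0.69 and 1.15 under 13 other ways of processing and passed 2-fold in 5 of them. Coq10b, Fhl2 and Ptprn each overlap another annotated gene. Neurl3, a ubiquitin ligase gene of the early response list, had only 5 and 22 UMIs in rich and 1 and 31 in poor cells before and after GnRH, too few to compare. Bag2, a co-chaperone, and Clk1, a kinase of splicing factors, were below 2-fold and are named after their values were seen: the log2 response was 0.83 in rich and 0.55 in poor cells for Bag2, and 0.62 and 0.25 for Clk1.

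Over all 340 genes, 1 had a response at least 1.5-fold larger in rich cells (0.294%) and 3 a response at least 1.5-fold smaller (0.882%). The larger one was Etnk2, an ethanolamine kinase of phospholipid synthesis. It had 172 and 276 UMIs in vehicle and GnRH rich cells and 197 and 188 in poor cells, and the cells between the classes were near the rich ones after GnRH. From the lowest to the highest quartile of Scg2 the level was 749, 1058, 970 and 1074 CPM in GnRH cells and 777, 731, 877 and 684 CPM in vehicle cells. The log2 response was 0.65 (0.37 to 0.94) in rich and −0.05 (−0.35 to 0.24) in poor cells, a difference of 0.71 (0.31 to 1.10), and Etnk2 overlaps no other gene. The difference lay between 0.37 and 0.84 under the 13 other ways of processing and stayed past 1.5-fold in 10. An Etnk2 UMI was seen in 43.5% of rich and 31.2% of poor GnRH cells, and in 29.3% and 32.0% of vehicle cells (thinned 23.3%, 17.3%, 16.7% and 19.6%). Cdk5r2, an activator of Cdk5 in neurons, followed Btg2 with a difference of 0.53 (0.14 to 0.92), and those of Plekha6, Cnnm4 and Carf (0.53, 0.52 and 0.52) had intervals that held 0. Under the 13 other ways of processing the difference of Cdk5r2 lay between 0.27 and 0.71 and that of Plekha6 between 0.29 and 0.96. That of Cnnm4 lay between −0.21 and 0.76 and that of Carf between 0.02 and 0.89, each lowest with thinned cells.

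The 3 genes with a smaller response in rich cells were Ccnyl1, 3110009E18Rik and Akr1cl. Ccnyl1, a cyclin Y-like gene, had 56 and 45 UMIs in vehicle and GnRH rich cells and 48 and 73 in poor cells, a difference in log2 response of −0.96 (−1.74 to −0.19). That of Ccnyl1 stayed past 1.5-fold in 12 of the 13 other ways of processing, with values of −0.98 to −0.41. For 3110009E18Rik the difference was −0.61 (−1.30 to 0.08), turning to 0.31 with thinned cells and past 1.5-fold in 7 of the 13, and for Akr1cl −0.61 (−1.05 to −0.17). That of Akr1cl was past 1.5-fold in 10 of the 13 and lay between −1.67, with classes of 10% of cells, and −0.50. It rested on single cells: without the UMIs of the 1 rich vehicle cell that held most of them it was −0.34, without those of the 1 such poor GnRH cell −0.45 and without both −0.17, all short of 1.5-fold (an alternative chosen after seeing the data). Fn1, at −0.56 (−1.04 to −0.07), and the diacylglycerol kinase gene Dgkd, at −0.55 with an interval below 0 and −0.03 with thinned cells, came next, and Mterf4 stood at −0.52 (−1.09 to 0.04). The difference of Fn1 lay between −0.64 and −0.35 under the 13 other ways of processing and passed 1.5-fold in 5. That of Mterf4 was −0.13 with thinned cells. The 6 genes had 222 to 695 UMIs in all, and they were picked as the extremes of 340 differences, so their intervals understate the uncertainty.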

How the data were processed

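GEM Drop-seq, a droplet-based 3′ single-cell RNA-seq, was run on 1 vehicle and 1 GnRH culture. The deposited counts were raw UMIs per gene and called cell, which the authors made with Cell Ranger 1.3, with build mm10 per the submitters' processing notes. The annotation and the use of strand were not given in the sources used here. The table analysed here held the first 1068 of 27998 listed genes (3.81%). The last row, 1 in number, was cut short and was not used. CPM (per 1000000 UMIs) and totals refer to these genes. They summed to 1126320 (vehicle) and 1118763 (GnRH) UMIs over all called cells.

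Of 1992 vehicle and 1889 GnRH cells, 219 and 108 had under 300 UMIs and were left out, so that 1773 and 1781 were ranked. UMIs were summed per class and gene and scaled to the class total without Scg2. Ratios have exact conditional binomial intervals and shares have exact binomial (Clopper-Pearson) intervals, at 95%. Genes needed 200 UMIs over the 4 class sums, and a sum of 0 was set to 3 counts. The limits were 1.5-fold between classes and 2-fold between treatments, with no test. Members and gene lists were chosen with earlier results of these data known. Named genes were list members (those with most UMIs and those past the fold), the 12 highest and 12 lowest mean ratios with 1 direction in both libraries, the 6 largest response differences each way, and the 5 highest and 5 lowest correlations with Scg2 (log of UMIs per 10000 plus 1, genes at a mean of 0.1 UMI per cell or more). Cells were also thinned to 300 UMIs, Scg2 included. Log2 ratios with thinned cells come from quartiles cut again on the thinned counts, so they mix depth with a change of members. Thinned shares of cells and thinned Btg2 UMIs per cell keep the original classes. No doublet caller was run, and an alternative left out the 5% of cells with most UMIs. Cell names held no barcodes, so barcodes shared between libraries could not be counted. Positions are from GENCODE M21 (GRCm38), in which 1062 of the 1068 genes were placed, all on chromosome 1. The script's class ratios were checked on simulated cells with known ratios, and no printed value comes from them. Python 3.11.15, numpy 2.4.6, pandas 2.3.3, scipy 1.17.1 and edgeR 4.0.16 (scaling only) were used.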

Additional observations from a re-analysis of the deposited data

How the results depend on the processing

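No paired analysis was possible because only 1 library was made for either treatment, and the ratios carry no test. Of 576 values for the 24 highest and lowest genes under 12 alternatives, 5 changed sign, among them 3110009E18Rik in vehicle cells, at −0.15 with thinned cells. Of 197 class values and counts, 153 stayed within their range and 44 moved. Of the named gene ratios 5202 did so, 240 moved and 1 reversed, that of 3110009E18Rik, and of the list medians 248 stayed and 40 moved. A ratio could count as reversed only if its main value was past 1.5-fold between classes or 2-fold between treatments. Other changes of sign were counted as stayed or moved. Causes were not tested unless the construction shows them. An alternative with each gene's own UMIs left out of the divisor, was chosen after seeing the data. It left the counts of genes past the limits between classes and between treatments as they were. The response differences of Btg2 (0.65) and Fn1 (−0.60) then passed 1.5-fold, and some ratios near 0 moved by over 1.5 times or changed sign, among them Ptma, Rpl7, Igfbp2 (0.16 and 0.04), Mcm3 and Mcm6 in vehicle cells (0.04 and 0.03) and, in GnRH cells, Inha (0.03).

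Genes 1.5-fold or more higher in Scg2-rich cells of both libraries numbered 2 with classes of 33.3% (St18 and Xkr4), 2 with classes of 10% (Cntnap5a and Inhbb), 0 with quartiles within 5 bins of depth, 0 with thinned cells, 5 with a minimum of 1 UMI, 14 at a log2 limit of 0.32 and 0 at 2-fold. For St18 the depth bins gave 0.79 and 0.56 and thinning 0.83 and 0.50, in vehicle and GnRH cells. Genes lower in both numbered 1 with thinned cells (Pask), 20 with a minimum of 1 UMI, 1 with 500 UMIs (Fn1), 14 at a log2 limit of 0.32 and 0 at 2-fold. Thinned Fn1 stood at −0.44 and −0.83 and Pik3c2b at −1.02 and −0.31.

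Genes 2-fold lower after GnRH numbered 1 in poor cells with classes of 33.3% (D230017M19Rik), 1 with cells of at least 500 UMIs (Carf) and 12 with a minimum of 1 UMI. In rich cells they numbered 1 with classes of 10% (Akr1cl), 1 with depth bins (Arhgef4) and 8 with a minimum of 1 UMI. Genes 2-fold higher numbered 13 in rich and 21 in poor cells with a minimum of 1 UMI, and 5 in poor cells with depth bins, which added Ptprn and Tmem198.

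The Scg2 log2 ratio was 1.51 and 1.56 with classes of 33.3% and 2.57 and 2.60 with classes of 10%, in vehicle and GnRH cells, the classes being wider and narrower by construction. In GnRH cells it was 1.80 with depth bins and 1.88 with thinning. With cells of at least 500 UMIs the median UMIs were 611, 618, 597 and 609 and the median genes 175, 179, 172 and 170, for vehicle rich, vehicle poor, GnRH rich and GnRH poor cells, and Btg2 was found in 38.6% of vehicle rich, 41.6% of vehicle poor and 100% of GnRH rich cells. Depth bins gave median UMIs of 515 in GnRH rich and 560 in GnRH poor cells. Thinning gave Btg2 shares of 19.4%, 23.2%, 96.6% and 91.9% in the same order.

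Depth limits the low genes. At the minimum of 200 UMIs a class sum was near 50, and 1 library per treatment leaves any difference between cultures inside the difference between treatments.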
